A study of Mus musculus with 26 samples.

Results

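The 10 interferon-inducible GTPases, Gbp2, Gbp3, Gbp4, Gbp5, Gbp6, Gbp7, Gbp9, Igtp, Irgm1 and Irgm2, were followed across 26 spleen libraries of a mouse model of ovalbumin sensitisation. They were taken by gene name from the deposited table, where all 10 were found among 56392 genes. RNA was poly(A)-selected from the spleens of female BALB/c mice aged 8 weeks. The control mice received saline (code CT, 5 libraries). The second treatment was the model allergen ovalbumin (OVA, from egg white) at 0.05 mg per day (codes OS, 6 libraries, and ON, 5 libraries). In the third, mice given OVA also received a synthetic mimic of the microRNA miR-676-3p (codes MM and MN, 5 libraries each), given by tail vein on day 3 at a dose of 7 mg per kg. Intraperitoneal injections were given on days 1, 3 and 5 in a design of 20 mice per group. The labels define none of the codes, and they do not say that each library is a separate mouse, so the p-values measure only the spread between these libraries, which may be technical.

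Interferon-inducible GTPases are part of cell-autonomous immunity, the defence that a cell mounts inside itself. Interferon gamma binds the receptor pair Ifngr1 and Ifngr2, the kinases Jak1 and Jak2 pass the signal on, and transcription factors, Irf1 among them, switch on the genes. Guanylate-binding proteins (Gbp) are large GTPases that assemble on the vacuoles of parasites and on bacteria and help open them. Immunity-related GTPases (IRG) act on the same vacuoles, and the 3 studied here, Igtp (also called Irgm3), Irgm1 and Irgm2, belong to the regulatory branch that sits on the cell's own membranes and keeps the effector IRG proteins inactive there. In the spleen, T cells and natural killer cells are main sources of interferon gamma, while macrophages, dendritic cells and lymphocytes all respond to it.

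The genes lie in clusters. The deposited table places Gbp5, Gbp7, Gbp3 and Gbp2 in this order on the + strand of chromosome 3. They run from 142199739 (start of Gbp5, ENSMUSG00000105504) to 142343769 (end of Gbp2, ENSMUSG00000028270), with Gbp2b (142300608 to 142324940) between Gbp3 and Gbp2. Gbp9, Gbp4 and Gbp6 lie on the - strand of chromosome 5, from 105225496 (start of Gbp9, ENSMUSG00000029298) to 105441564 (end of Gbp6, ENSMUSG00000104713). Igtp (ENSMUSG00000078853, 58090382 to 58098417) and Irgm2 (ENSMUSG00000069874, 58090444 to 58113608) overlap on the + strand of chromosome 11, where Irgm1 (ENSMUSG00000046879, 48752795 to 48762510) lies on the - strand. The table names no genome build for these positions, and all 10 are annotated as protein-coding.

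The promoters were searched for motifs through which interferon acts. The RefSeq table (GRCm38.p6, 250 bases before to 50 after the start site) held promoters for 7 of the 10 genes, with a second start for Gbp3. Both strands were read. The interferon-stimulated response element (ISRE), bound by IRF factors, was searched as GAAANNGAAA, and the gamma-activated site (GAS), a motif of the interferon gamma response, as TTCNNNGAA, a palindrome. The ISRE letters were found in 7 of 8 promoters, which cover all 7 genes, against 3.44% of 32851 RefSeq promoters of the same length. The GAS letters were in 4 of 8, against 8.30%, and both motifs together in 4 of 8, against 0.454%. The promoters of Gbp5, Gbp2, Igtp and Irgm2 are printed, as those of the overlapping IRG pair and of the Gbp pair with the most similar profile on chromosome 3. Capitals mark the matches to either motif, the ISRE in either orientation. Gbp5 lies at chr3:142496684-142496983 on the + strand, Gbp2 at chr3:142620413-142620712 on the + strand, Igtp at chr11:58199306-58199605 on the + strand and Irgm2 at chr11:58214727-58215026 on the + strand.
Gbp5: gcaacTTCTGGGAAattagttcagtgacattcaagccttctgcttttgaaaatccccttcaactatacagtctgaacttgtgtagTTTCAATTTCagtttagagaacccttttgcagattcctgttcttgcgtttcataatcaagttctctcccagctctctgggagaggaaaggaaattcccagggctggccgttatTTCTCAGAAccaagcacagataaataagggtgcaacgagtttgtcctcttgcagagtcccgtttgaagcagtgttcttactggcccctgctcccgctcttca
Gbp2: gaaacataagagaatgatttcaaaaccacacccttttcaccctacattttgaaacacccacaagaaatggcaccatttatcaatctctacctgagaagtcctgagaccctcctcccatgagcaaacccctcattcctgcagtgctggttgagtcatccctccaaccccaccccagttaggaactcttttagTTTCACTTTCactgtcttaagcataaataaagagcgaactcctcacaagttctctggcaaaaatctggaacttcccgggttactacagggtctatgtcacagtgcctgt
Igtp: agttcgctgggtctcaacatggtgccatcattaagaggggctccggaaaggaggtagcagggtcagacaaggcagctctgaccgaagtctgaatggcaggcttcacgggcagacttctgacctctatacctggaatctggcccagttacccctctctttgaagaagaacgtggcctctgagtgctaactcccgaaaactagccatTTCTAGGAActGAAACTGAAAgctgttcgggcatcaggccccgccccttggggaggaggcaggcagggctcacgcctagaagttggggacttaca
Irgm2: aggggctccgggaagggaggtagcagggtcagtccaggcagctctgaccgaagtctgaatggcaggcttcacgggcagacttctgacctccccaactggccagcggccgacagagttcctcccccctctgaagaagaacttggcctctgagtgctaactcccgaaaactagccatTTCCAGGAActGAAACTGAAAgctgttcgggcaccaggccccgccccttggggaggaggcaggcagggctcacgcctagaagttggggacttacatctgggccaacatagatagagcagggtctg

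Igtp and Irgm2 carried the same compact arrangement, a GAS followed within a few bases by an ISRE, and their promoters were identical at 247 of 271 aligned positions (91.1%). Gbp5 had 2 GAS matches and an ISRE, whereas Gbp2 had an ISRE alone in this window. The search fixed every letter of the ISRE but those marked N, so only these and the flanks can differ between matches. ISRE matches in the other 3 genes are given with 5 flanking bases on each side.
Gbp7 ISRE: tgcagTTTCAGTTTCagttc
Gbp3 ISRE: cacagTTTCAGTTTCtattt
Irgm1 ISRE: aaataGAAACCGAAActgat
Gbp7 also had 2 GAS matches, and in Gbp3 and Irgm1 a second ISRE match overlapped the one printed. The ISRE letters were found in 65.4% of promoters of a list of type I interferon genes, in 66.7% of those of other IRG and Gbp genes, and in 15.4% of those of other interferon gamma targets such as chemokines and antigen-processing genes. Matches are descriptions of the letters and not shown binding sites.

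The libraries held 14224832 to 18113989 reads recovered from the table. For 1 read on a kilobase the FPKM (fragments scaled by gene length and an effective library size) was 0.0520 to 0.0899. That size was 0.712 (ON 2) to 1.12 (ON 1) times the recovered reads, and 0.802 times in CT 4. A lower ratio raises the FPKM of a library, and how the ratio arose is not stated in the sources used here. The 10 genes together took 0.0438% to 0.1003% of the reads. Genes of the pancreas, an organ that adjoins the spleen, were abundant in 3 libraries (30.7% of the reads of ON 2, 15.5% of those of MM 2, 4.71% of those of ON 3) and near absent in the rest, at or below 0.00388%. Mitochondrial genes held 6.62% of reads in CT 4 and 1.26% to 2.39% elsewhere. Because the samples are bulk spleen, fewer cells of a type and less RNA per cell cannot be told apart.

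Igtp was the most abundant of the 10 in all 26 libraries, at 54.8 ± 7.72 FPKM (SD, n = 26), which is a level per gene length and so comparable between genes. Irgm2 followed at 25.0 ± 7.05 and Gbp9 at 22.5 ± 3.95. The order of these neighbours was not fixed, since Irgm2 was above Gbp9 in 14 of 26 libraries. Gbp9 was above Gbp4 in every library. Below it, Gbp4 (14.6 ± 2.32), Gbp2 (14.6 ± 3.00), Irgm1 (14.5 ± 2.05), Gbp7 (13.8 ± 2.41) and Gbp3 (12.8 ± 1.84) formed a band. Their means lay closer together than their SDs, and Gbp4 was above Gbp2 in 13 libraries and Gbp2 above Irgm1 in 12. Gbp5 came next at 6.03 ± 0.968 FPKM, below Gbp3 in all 26 libraries. Gbp6 was the lowest at 0.354 ± 0.0973 FPKM, resting on 17 to 57 reads per library, against at least 338 reads for each of the other 9 genes. Igtp stayed first and Gbp5 and Gbp6 last in the mean of each of the 5 codes.

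**Figure D1:**
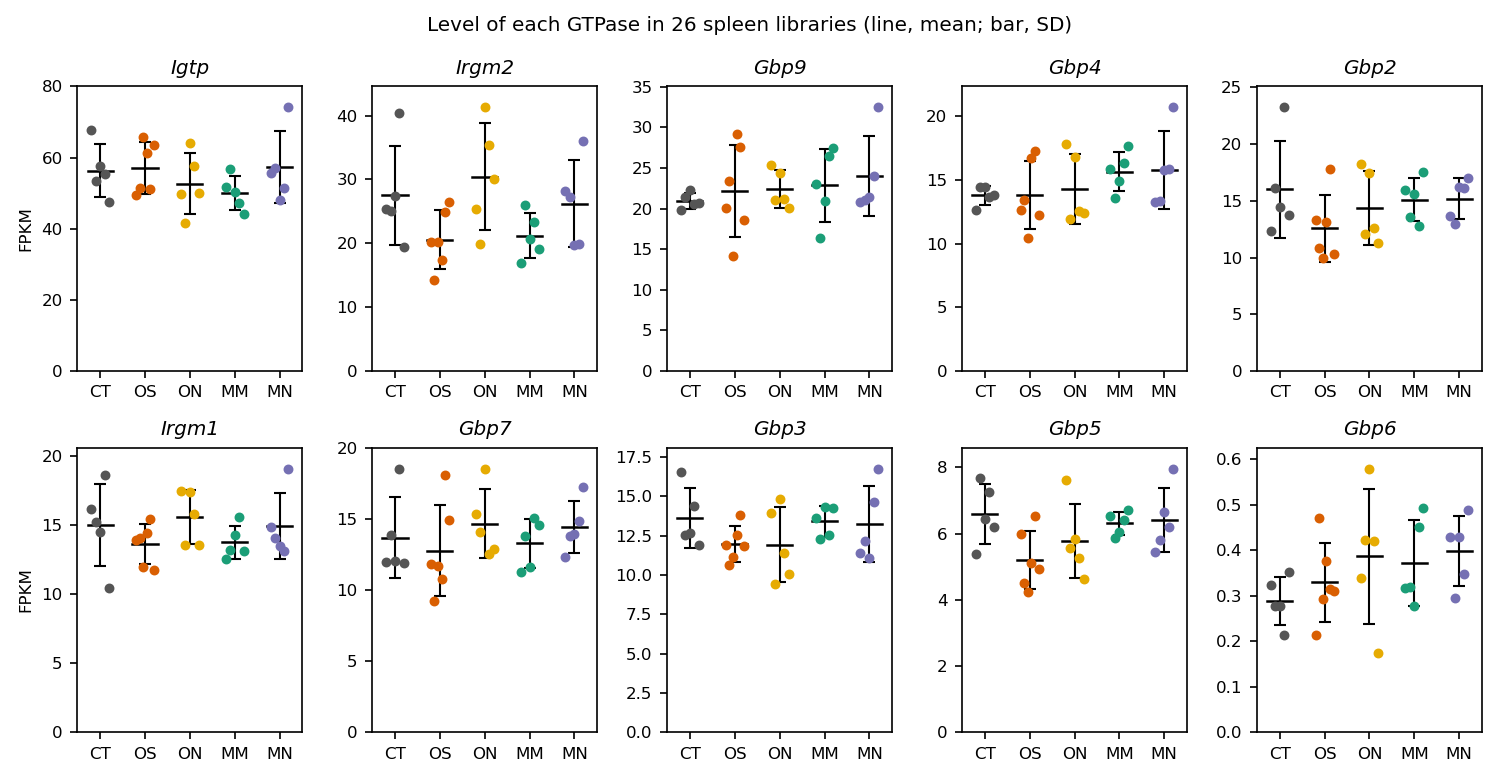
FPKM (linear axis from 0) of each gene in each library, by code, with genes in order of mean level. Points are libraries, horizontal lines are code means and bars are SDs, with n = 6 for OS and n = 5 for the other codes. The codes overlap for every gene, from Igtp at 41.6 to 74.2 FPKM down to Gbp6 at 0.174 to 0.580.

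Some of these levels rest partly on shared sequence. In a GRCm38 annotation (GENCODE M21) whose exon lengths equal the deposited gene lengths for all 10 genes, Gbp6 shared 29.0% of its exon bases with the overlapping Gm43302, and 67.3% of its 75-base windows occurred in transcripts of other genes such as Gbp10 and Gbp11. Its FPKM is therefore uncertain. Gbp7 shared 11.4% of its exon bases with the pseudogene Gm43802. Igtp shared 8.01% and Irgm2 4.39% with each other, although 99.2% of the span of Igtp lies within that of Irgm2. For the other 6 genes the shared exon bases came to at most 1.16%. The sources used here do not give the strand setting of the counting.

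None of the 9 genes tested passed in any of 13 comparisons. The test was limma on log2(FPKM + 1) with Benjamini-Hochberg adjustment over 15672 genes (those at 1 FPKM or more in 5 or more libraries), at a threshold of 0.05, and Gbp6 was below 1 FPKM in all libraries. The first comparison, OVA against saline, concerned the response of the spleen to the allergen. There, 0 of 9 passed, beside 2.17% of all genes tested (123 higher and 217 lower). The median log2 difference of the 9 genes was -0.04, with 2 genes above 0 and 7 below, and the median of all genes was 0.01. The median of the 9 was -0.14 without CT 5 and 0.01 without CT 4. In OVA with mimic against OVA, which asked what the mimic added, 0 of 9 passed beside 0% of all genes, and the median of the 9 was 0.07, which was 0.13 without the pancreas-rich libraries and 0.01 without MN 5. In OVA with mimic against saline, again 0 of 9 passed beside 0% of all genes, and the median was -0.04 (-0.07 without CT 5 and 0.03 without CT 4). These are small differences with narrow intervals, since all 27 intervals (95%) of the 3 treatment comparisons lay within 1.5-fold in either direction on this scale, with bounds from -0.57 to 0.42. A miss of the threshold does not show that levels were the same. In each of the first 2 comparisons 1 of 9 genes, Gbp5, had an unadjusted p under 0.05, and the third had none. In the limma fit its adjusted p was 0.237 and 0.430. The share of all genes at the unadjusted limit is not given beside these counts, so they are not read as a change. With limma voom on recovered reads the counts were also 0, and with library weights 1 gene, Gbp5, passed in OVA against saline (limma adjusted p = 0.0303).

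**Figure D2:**
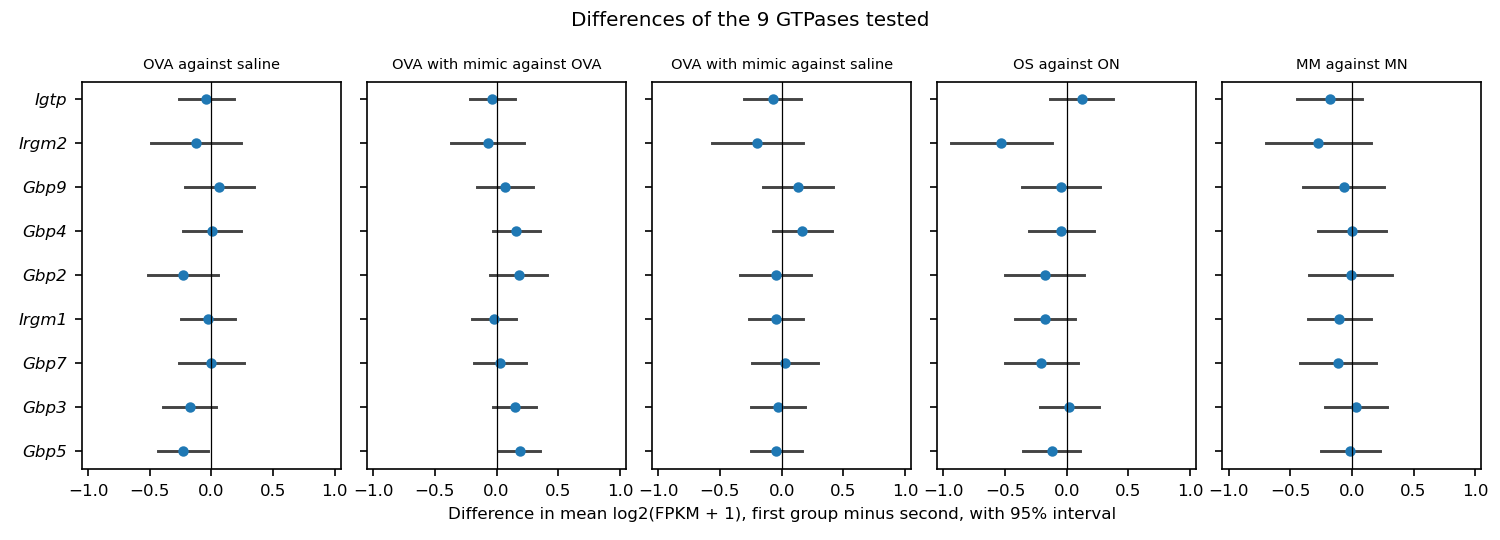
Difference in mean log2(FPKM + 1) for 9 GTPases in 5 comparisons, first group minus second, with lines for the 95% interval of the limma fit over 26 libraries. Intervals of Gbp5 in OVA against saline and in OVA with mimic against OVA, and of Irgm2 in OS against ON, lie clear of 0 before adjustment, and none passed after it.

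Comparisons between codes gave the same count, while the share of all genes called differed between them. That share was 0.185% for OS against ON, 0.172% for MM against MN, 2.99% for OS against CT, 0.510% for ON against CT, 0.300% for MM against CT and 0% for MN against CT. Between codes of the other treatments it was 0% for MM against OS, 0% for MM against ON, 2.89% for MN against OS and 0.249% for MN against ON. In each of these 10 comparisons 0 of the 9 GTPases passed. The OS mean was the lowest of the 5 codes for 5 of the 9 genes. The median of the 9 was -0.12 in OS against ON and -0.12 in OS against CT, each with 7 genes below 0, and 0.18 in MN against OS, with 8 above 0. With 1 library left out these medians ran from -0.19 (without ON 5) to -0.03 (without ON 1), from -0.21 (without CT 5) to -0.04 (without CT 4) and from 0.08 (without MN 5) to 0.25 (without OS 5), in that order. These comparisons share the OS libraries, so they are not separate evidence. Over all 117 member tests, 7 had an unadjusted p under 0.05, and all of these were of Gbp5 or Irgm2. Here too no share of all genes stands beside the count, and many of the tests share libraries.

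Irgm2, a regulator of the IRG system that is found on Golgi membranes, varied most, with a coefficient of variation of 28.2% over the 26 libraries. In saline it stood at 25.3, 25.0, 27.3, 40.4 and 19.4 FPKM (CT 1 to CT 5). In OS it ranged from 14.2 over a median of 20.2 to 26.5 FPKM. In ON it was 25.4, 20.0, 41.3, 35.5 and 30.1 FPKM (ON 1 to ON 5), so that 3 of 5 ON libraries lay above every OS library and the other 2 lay within the OS range. With the mimic it was 16.9, 26.1, 20.7, 23.3 and 19.1 FPKM in MM 1 to MM 5, and 28.2, 27.3, 19.7, 19.9 and 36.1 FPKM in MN 1 to MN 5. The MM libraries overlapped both the saline and the OS range. OS against ON gave the largest difference of any member test, -0.53 ± 0.20 (SE, 95% interval -0.94 to -0.12), with means of 20.6 ± 4.60 and 30.5 ± 8.36 FPKM (SD, n = 6 and 5) and a limma adjusted p of 0.319. Without the pancreas-rich libraries it was -0.55 (limma adjusted p = 0.327). When limma weighted libraries by their quality it was -0.68 and passed (adjusted p = 0.0492).

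Igtp, the other gene of the overlapping pair, is found on the endoplasmic reticulum and lipid droplets. Its saline libraries held 67.7, 53.4, 57.6, 55.5 and 47.4 FPKM. OS ranged from 49.4 over a median of 56.3 to 65.8, and ON held 49.6, 41.6, 64.1, 57.8 and 50.1 FPKM. MM held 51.7, 56.7, 50.3, 47.1 and 44.2 FPKM, and MN 55.7, 57.2, 48.0, 51.4 and 74.2. Of the 11 OVA libraries, 10 lay within the saline range, and the exception was ON 2, a pancreas-rich library. Igtp differed by -0.04 ± 0.11 in OVA against saline and by -0.03 ± 0.09 in OVA with mimic against OVA (limma adjusted p = 0.907 and 0.914). Its difference in OS against ON, 0.12 ± 0.12, had the opposite sign to that of Irgm2.

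The FPKM of Irgm2 divided by that of Igtp overlapped less between the OVA codes than Irgm2 alone, since 4 OS libraries reached the lowest ON value of Irgm2 and 1 reached that of the ratio. The ratio was 0.363 ± 0.0870 in OS and 0.570 ± 0.0708 in ON (SD, n = 6 and 5), beside 0.491 ± 0.140 in saline, 0.425 ± 0.0632 in MM and 0.453 ± 0.0517 in MN. OS ranged from 0.275 to 0.488 and ON from 0.480 to 0.645, and OS 5 was the library that reached into the ON range. The ratio was set up after the values were seen and is given without a test.

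**Figure D3:**
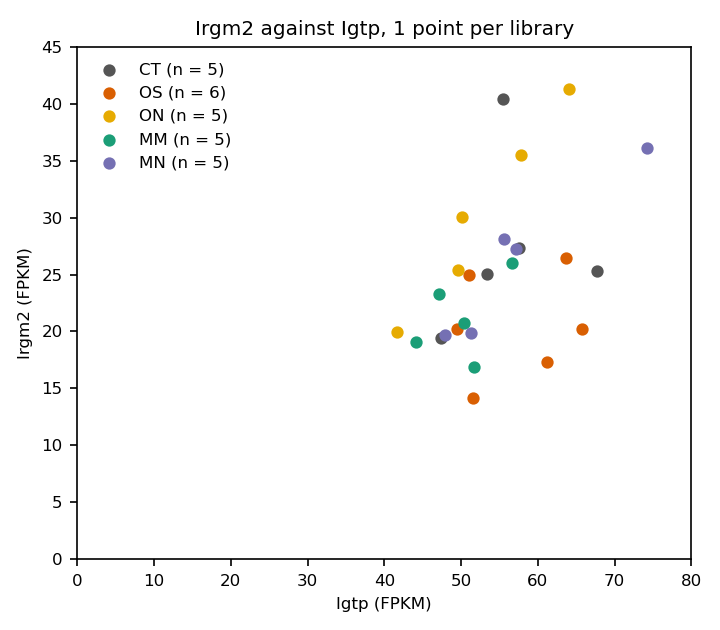
Irgm2 against Igtp in FPKM, linear axes from 0, with 1 point per library coloured by code. The ON points lie above the OS points at similar Igtp, with mean ratios of Irgm2 to Igtp of 0.570 and 0.363.

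Irgm1, a regulator on Golgi and lysosomal membranes that is also tied to autophagy, had a wide saline range. All 11 OVA libraries lay within the saline range of 10.4 to 18.6 FPKM, as did 9 of 10 with the mimic, and MN 5 was above it at 19.1. Means were 15.0 ± 2.98, 14.5 ± 1.90 and 14.3 ± 1.90 FPKM (SD, n = 5, 11 and 10). The difference in OVA against saline was -0.03 ± 0.11 (limma adjusted p = 0.941).

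Gbp5, which promotes assembly of the NLRP3 inflammasome, had the smallest p of the 9 genes in OVA against saline and in OVA with mimic against OVA. The saline libraries held 5.39, 7.68, 6.46, 7.27 and 6.19 FPKM. OS ranged from 4.23 over a median of 5.02 to 6.52 FPKM, and ON held 7.61, 5.58, 5.83, 5.25 and 4.64. The lowest saline value was undercut by 6 of the 11 OVA libraries, and the highest was exceeded by none. MM held 6.52, 5.87, 6.04, 6.42 and 6.70 FPKM and MN 5.44, 5.80, 6.65, 6.22 and 7.96, so that 9 of 10 libraries with the mimic lay within the saline range. The difference was -0.23 ± 0.10 in OVA against saline (5.47 ± 0.986 against 6.60 ± 0.904 FPKM, limma adjusted p = 0.237). In OVA with mimic against OVA it was 0.19 ± 0.08 (6.36 ± 0.693 against 5.47 ± 0.986, limma adjusted p = 0.430). Both comparisons use the same OVA libraries. In OS against CT the difference was -0.29 ± 0.11 (limma adjusted p = 0.168). With quality weights Gbp5 passed in OVA against saline (-0.32, adjusted p = 0.0303) and in OS against CT (-0.37, adjusted p = 0.0477).

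Gbp2, a membrane-anchored member that targets parasite vacuoles and bacteria, varied with Gbp5 over the 26 libraries (r = 0.84). The saline libraries held 12.3, 16.2, 14.5, 23.3 and 13.8 FPKM, OS ranged from 9.98 over a median of 12.0 to 17.8, and ON held 18.3, 12.1, 17.5, 12.6 and 11.3. MM held 16.0, 13.6, 15.6, 12.8 and 17.5 FPKM, and MN 13.7, 12.9, 16.2, 16.2 and 17.0. The saline library with the high mitochondrial share, CT 4, held the highest Gbp2 value of all 26. The difference in OVA against saline, -0.23 ± 0.14 (limma adjusted p = 0.438), was -0.09 without CT 4. Whether the mitochondrial share plays a part in that value was not tested.

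Gbp3 and Gbp7 lie between Gbp5 and Gbp2 in the chromosome 3 cluster. Gbp3 was 13.6 ± 1.89 FPKM in saline, 12.0 ± 1.70 in OVA and 13.3 ± 1.74 with the mimic (SD, n = 5, 11 and 10). Of the 11 OVA libraries 7 lay below the lowest saline value, 11.9 FPKM, and the difference was -0.18 ± 0.10 (limma adjusted p = 0.417). Gbp7, which is linked to assembly of the phagocyte NADPH oxidase, was 13.7 ± 2.84, 13.7 ± 2.91 and 13.9 ± 1.77 FPKM in the same groups. Its difference in OVA against saline was -0.00 ± 0.13 (limma adjusted p = 0.997).

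Gbp4 and Gbp9 overlap in the chromosome 5 cluster. Gbp4 held 12.6, 14.4, 14.5, 13.7 and 13.8 FPKM in saline, a narrow range. In OS it ran from 10.5 over a median of 13.1 to 17.3, and ON held 17.8, 11.9, 16.8, 12.6 and 12.4 FPKM. MM held 15.9, 13.6, 14.9, 16.3 and 17.6 FPKM and MN 13.2, 13.3, 15.8, 15.8 and 20.7. Of the 10 libraries with the mimic, 7 lay above the highest saline library and none below the lowest, while of the 11 OVA libraries 4 lay above and 5 below. The difference was 0.17 ± 0.12 in OVA with mimic against saline (15.7 ± 2.27 against 13.8 ± 0.753 FPKM, limma adjusted p = 0.743) and 0.16 ± 0.09 in OVA with mimic against OVA (limma adjusted p = 0.555). Gbp9 was 20.96 ± 0.957 FPKM in saline, 22.3 ± 4.29 in OVA and 23.4 ± 4.48 with the mimic. Its codes explained 5.59% of its variation over libraries, the least of the 9 genes.

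Gbp6, below the filter, was 0.289 ± 0.0531 FPKM in saline, 0.356 ± 0.116 in OVA and 0.385 ± 0.0824 with the mimic. Of the 10 libraries with the mimic 5 lay above the saline range, as did 5 of 11 OVA libraries. A fit with no filter on low values, over 35291 genes, called it in none of 13 comparisons, with a smallest unadjusted p of 0.0934 in OVA with mimic against saline (limma, difference 0.10 ± 0.06).

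Set against the saline range, the 9 tested genes gave 99 values in OVA libraries, of which 11 lay above, 32 below and 56 within. The 90 values with the mimic fell 16 above, 9 below and 65 within. The share of all genes outside the saline range is not given beside these counts or those of single genes above. Most of the 9 genes varied together over the same libraries, so the counts are not read as a shift. Single libraries carried many of the values outside the range. MN 5 was the highest of all 26 libraries for 6 of the 9 genes, OS 3 was the lowest for 4, and OS 2 and ON 2 were each the lowest for 2. Code accounted for a median of 15.4% of the variation of a tested GTPase, from 5.59% (Gbp9) to 32.3% (Gbp5), beside 18.1% for all genes tested. The SD within codes had a median of 0.210 on the log2 scale, beside 0.258 for all genes.

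Most of the genes varied together across libraries. As a description over 26 libraries that share their normalisation and depth, 32 of 36 pairs of the 9 genes had a positive Pearson r of log2(FPKM + 1), with a median of 0.47. The closest pairs were Gbp4 with Gbp9 (r = 0.88, Spearman rho = 0.84) and Gbp2 with Gbp5 (r = 0.84, rho = 0.87). After each gene was centred on its code means these were 0.89 and 0.80. The Gbp4 and Gbp9 spans overlap, with 0.814% of Gbp4 exon bases shared, and the FPKM of Gbp9 was 1.54 ± 0.128 times that of Gbp4 over the 26 libraries. The 4 chromosome 3 genes had a median r of 0.59 with each other. The 3 IRG genes had r of 0.33 to 0.64, and Gbp genes with IRG genes a median of 0.31. Igtp had r of -0.16 with Gbp5, -0.13 with Gbp2 and -0.08 with Gbp9, but 0.42 with Gbp3 and 0.48 with Irgm2, while Irgm2 was closest to Gbp7 (r = 0.66) and Irgm1 (r = 0.64).

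**Figure D4:**
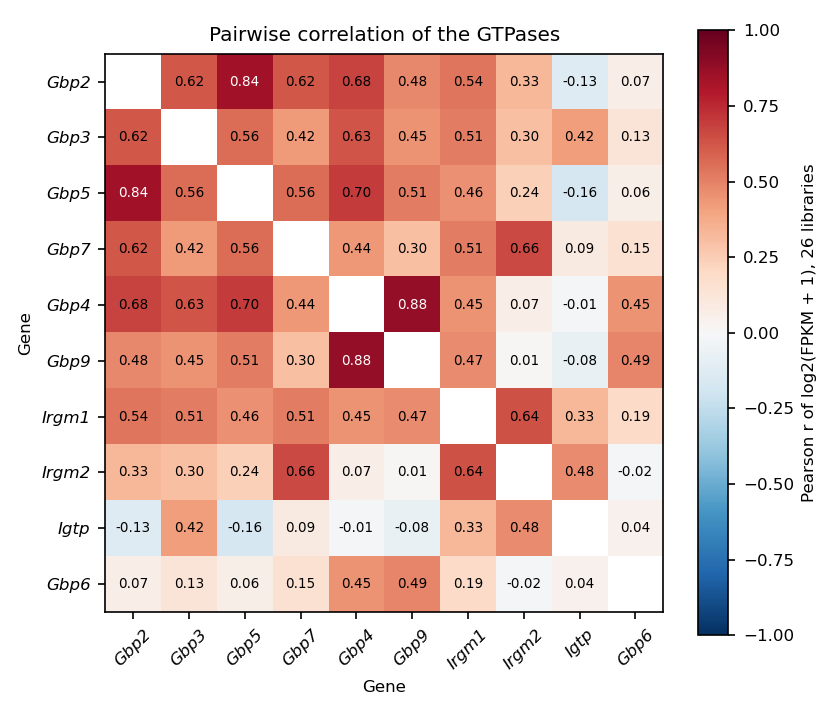
Pearson r of log2(FPKM + 1) for each pair of the 10 GTPases over 26 libraries, on a colour scale from -1 to 1. The Gbp genes form a block of positive values that peaks at 0.88 for Gbp4 with Gbp9, and Igtp has values near or below 0 with Gbp2, Gbp4, Gbp5 and Gbp9.

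The genes most like the mean profile of the 9 GTPases were ranked by Pearson r over 26 libraries. The 10 highest, with predicted genes and pseudogenes left out of naming, were Slfn8 (r = 0.86), Parp14 (0.83), Nol8 (0.83), Tgtp2 (0.82), Parp9 (0.82), Trim12c (0.80), Tlr3 (0.79), Gbp2b (0.79), Kmt5b (0.78) and Trim30a (0.77). Tgtp2 is an effector IRG protein, whose near-identical neighbour Tgtp1 can share its reads, and Gbp2b another guanylate-binding protein of the chromosome 3 cluster. Parp9 and Parp14 are ADP-ribosyltransferases of the interferon response, Tlr3 senses double-stranded RNA, Nol8 is a nucleolar protein and Kmt5b a histone methyltransferase. After centring on code means the r of Slfn8 was 0.85 and that of Tgtp2 0.86. Of 17 other IRG and Gbp genes tested, 8 were among the 100 most alike and the median r was 0.67. Gm12250 (the IRG effector Irgb10) was at 0.78 and Iigp1 at 0.71, while Gbp8 was at 0.16. The deposited annotation lists Gm12250 as a processed pseudogene. A list of 31 type I interferon genes had a median of 0.36 with 3 in the top 100. The mean of that list had r = 0.53 with the mean of the 9, and 0.12 without the 2 libraries farthest from the median, so that relation rests on them.

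The signalling genes upstream had lower r. The 14 interferon gamma signalling genes tested had a median r of 0.01 and none in the top 100, with Jak1 at 0.53, Irf1 at 0.02, Ifngr1 at -0.38 and the inhibitor Socs1 at -0.40. Other interferon gamma targets, 19 tested, had a median of 0.03 with 3 in the top 100, Parp14, Parp9 and Dtx3l, and Cxcl9, a chemokine that draws T cells, was at 0.28. All 15663 other genes tested had a median of -0.03. The 100 genes most alike also held 24 zinc finger genes named Zfp (24%), beside 1.72% of the rest of the genes tested, and their median gene length was 5796 bases beside 3404. Length and gene class were looked at after the values were seen, and their part in the likeness was not tested.

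**Figure D5:**
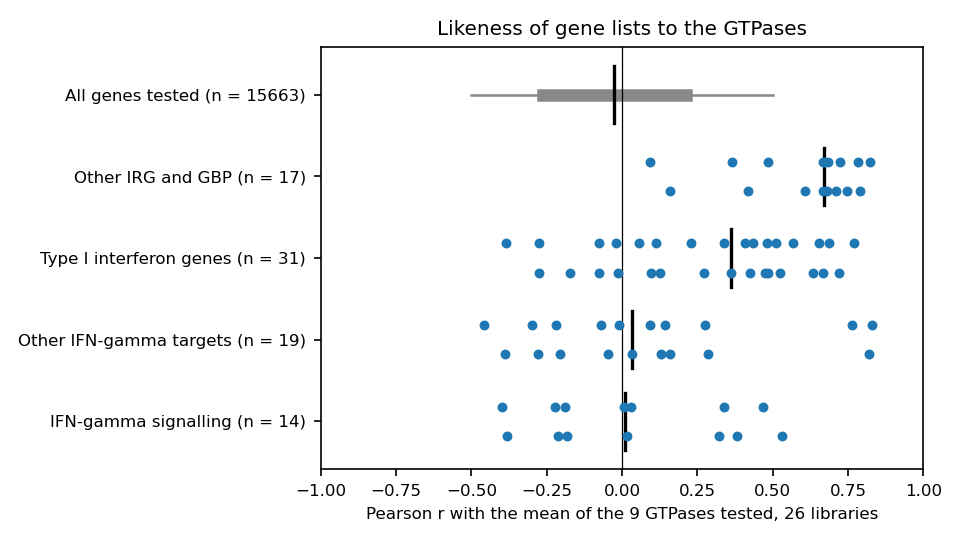
Pearson r of each gene with the mean log2(FPKM + 1) profile of the 9 tested GTPases over 26 libraries, by gene list. Points are genes, black lines are list medians, and for all genes the thick bar spans the middle 50% and the thin line the 5th to 95th percentile. Other IRG and Gbp genes sit highest, with a median of 0.67, and interferon gamma signalling genes sit around 0.01.

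In the wider pathway, a chain of the receptor passed the test. Ifngr1, the ligand-binding chain of the interferon gamma receptor, rose from 47.3 ± 7.27 FPKM in saline (n = 5) to 68.3 ± 14.6 in OVA (n = 11), a difference of 0.49 ± 0.11 (limma adjusted p = 0.0232). In OS against CT it rose by 0.67 (76.1 ± 14.4 FPKM, limma adjusted p = 0.00471). The OVA call ended without CT 4 (0.38, limma adjusted p = 0.0605), without the pancreas-rich libraries, with a single mean per treatment and when only the compared libraries entered the fit, which also ended the OS call. Of the 14 signalling genes tested, Ifngr1 was the 1 that passed in OVA against saline, beside 2.17% of all genes called. The median difference of the 14 was 0.02. Irf1 was 19.7 ± 5.84 FPKM in OVA and 24.4 ± 6.67 in saline (limma adjusted p = 0.489). Ifng itself, below the filter, was at 0.382 ± 0.220 FPKM in saline, 0.464 ± 0.383 in OVA and 0.631 ± 0.466 with the mimic. Ifnar1, a chain of the type I interferon receptor, rose in OS against CT (24.9 ± 4.69 against 17.6 ± 1.10 FPKM, limma adjusted p = 0.0151). That call ended when only the compared libraries entered the fit (limma adjusted p = 0.157). Ifnar1 also passed in OVA against saline (0.35, limma adjusted p = 0.0467), a call that held in 10 of 25 alternatives. In MN against OS it was lower (-0.41, limma adjusted p = 0.0319), a call that held in 12 of 19. These comparisons share the OS libraries.

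Among 19 other interferon gamma targets, 0 rose and 1 fell in OVA against saline, beside 2.17% of all genes called. The median of the 19 was -0.10. The gene that fell was Psme2, a subunit of the proteasome activator, at 31.6 ± 9.46 FPKM against 52.8 ± 10.7 (difference -0.76 ± 0.20, limma adjusted p = 0.0471). That call held in 8 of 25 alternatives. It ended without any 1 of 12 libraries (CT 1 to CT 5, OS 1, OS 5, OS 6, ON 1, ON 2, ON 3 and ON 5), with no filter, only the libraries compared, a single mean per treatment, the replicate block and no pancreas-rich library, at an adjusted p of 0.0541 to 0.136. Psme2 has a near-identical copy, Psme2b, with which its reads can be confused. Cd274, which encodes the checkpoint ligand PD-L1, rose in OS against CT (21.7 ± 8.10 against 9.01 ± 0.399 FPKM, difference 1.11 ± 0.21, limma adjusted p = 0.00471). Cd274 was lower in MN than in OS (10.1 ± 0.660 FPKM, difference -0.96 ± 0.21, limma adjusted p = 0.0140). Both Cd274 calls held in all 19 alternatives run for each, and both use the same OS libraries, with their SD of 8.10 FPKM. MM received the same mimic, and MM against OS called 0 of 15672 genes, so Cd274 did not pass there. The same holds for OVA with mimic against OVA, which also called 0 of 15672. In OVA with mimic against OVA, 0 of 14 signalling genes, 0 of 19 targets and 0 of 31 type I interferon genes passed (limma), beside 0% of all genes. An unadjusted p under 0.05 (limma) was found for 1, 5 and 6 of them. The share of all genes at that limit is not given beside these counts, so they are not read as a change. Of the type I interferon list, Slfn5 passed in OS against CT (-0.61, limma adjusted p = 0.0278) and in MN against OS (0.62, limma adjusted p = 0.0273). These Slfn5 calls share the OS libraries and held in 11 and 12 of 19 alternatives.

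Other members of the same families were counted in the same way, in comparisons that share libraries. Of 24 names listed 20 were found and 17 tested. Their median was -0.06 in OVA against saline (0 of 17 passed), 0.13 in OVA with mimic against OVA (0 of 17 passed) and 0.01 in OVA with mimic against saline (0 of 17 passed), beside -0.04, 0.07 and -0.04 for the 9. In MN against OS 16 of 17 were above 0 with a median of 0.26, and 1 passed, beside 2.89% of all genes. That gene was Gm12250, at 13.7 ± 1.71 FPKM in MN and 8.48 ± 2.79 in OS (difference 0.67 ± 0.18, limma adjusted p = 0.0405). The call held in 8 of 19 alternatives. It ended without any 1 of OS 2, OS 3, OS 6 or MN 1 to MN 5, with no filter, with only the libraries compared and with the replicate block, at an adjusted p of up to 0.138. In OS against ON 16 of 17 were below 0, with a median of -0.15 and 0 passing, beside 0.185% of all genes. The share of all genes above or below 0 is not given here, and both comparisons use the OS libraries. The counts by sign are therefore not read as a shift of the families. Ifi47 and Gbp8, both of higher level, were 31.9 ± 4.13 and 17.5 ± 3.48 FPKM in OVA beside 31.4 ± 6.78 and 14.9 ± 2.47 in saline (limma adjusted p = 0.873 and 0.398).

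Cell type lists were read beside these values. In OVA against saline 3 of 12 natural killer and cytotoxic genes fell, Gzma, Ncr1 and Klrg1, beside 2.17% of all genes called. The list had 6 genes above 0 and 6 below, with a median of -0.06. Gzma, which encodes granzyme A, fell from 38.9 ± 6.09 to 24.6 ± 3.10 FPKM (limma adjusted p = 0.00494). The Gzma call held in all 25 alternatives, that of Klrg1 in 19 and that of Ncr1 in 15. Among single libraries, the Klrg1 call ended without any 1 of CT 1, CT 2, CT 3 or ON 2 (limma adjusted p of 0.0522 to 0.0910), and that of Ncr1 without any 1 of CT 1 to CT 5 or OS 1 (0.0514 to 0.0759). All 14 neutrophil genes were above 0 with a median of 0.72, and none passed. In OVA with mimic against OVA all 14 were below 0, with a median of -0.85 and none passing, in a comparison that shares the OVA libraries. The log2 mean of that list, centred over 26 libraries, was -1.51, -1.52, -1.55 and -1.23 in MM 1, MM 3, MM 5 and MN 5. In the other libraries with the mimic it ran from -0.02 (MN 1) to 1.19 (MN 4). It ran from -0.99 (CT 4) to 0.76 (CT 1) in saline and from -0.21 (OS 1) to 0.91 (OS 3) in OVA. In the monocyte list Nr4a1 passed in OS against CT (2.30, limma adjusted p = 0.0226), beside 2.99% of all genes called. That call held in 13 of 19 alternatives. Among single libraries it ended without any 1 of CT 4, OS 2 or OS 4. The part of these cells in the levels of the GTPases was not tested.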

How the data were processed

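RNA-seq of 26 spleen libraries was read from a single deposited table of FPKM per gene, made by the authors. Per the submitters' processing notes the tools included edgeR 3.24.3 and DESeq2 1.20.0, featureCounts 1.5.0-p3, HISAT2 2.0.5, CASAVA, and StringTie 1.3.3b. Their roles and the genome build are not stated in the sources used here. FPKM times gene length gave whole reads for 100% of values (tolerance 0.05), which were used for depth and for limma voom as an alternative. No interval here covers more than counting error and the spread between libraries.

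Groups follow the codes in the labels. log2(FPKM + 1) was fitted with limma 3.58.1 in R 4.3.3, with 1 mean per code over all 26 libraries and a variance trend. For OVA the OS and ON means were averaged, and for OVA with mimic those of MM and MN. Benjamini-Hochberg adjustment ran over all genes tested within each of 13 comparisons. A fold change on this scale understates that of genes with low values. The fit was tested on simulated data. Alternatives were a pseudocount of 0.1, no filter, only the libraries compared, a single mean per treatment, a replicate block, library weights, rescaling, voom, each library left out in turn, and no library in which pancreas genes held over 1% of summed FPKM. No pairing of libraries across codes by their replicate numbers was seen, since 1 of 25 libraries correlated best with its own number.

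The members and lists were chosen with earlier results of these data known. Named were all 10 members, from each list the passing genes with the smallest p (up to 4) and highly expressed pathway genes, and the 10 named genes most like the members. Gene lists matched 20 of 24 names for other IRG and Gbp genes, 15 of 15 for interferon gamma signalling, 22 of 23 for its other targets and 31 of 32 for type I interferon genes. Protein sequences were not used here. A gene of the signalling list is not reported here.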

Additional observations from a re-analysis of the deposited data

Results flagged for a closer look

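Gbp9 in MN 5 stood apart from the other libraries of its code. It was at 32.5 FPKM, while the other 4 MN libraries held 20.8 to 24.1 FPKM, and the gap was 0.724 of the range of the code, above the critical value of 0.71 for 5 samples. It was the 1 value of this kind among 50 groups of gene and code examined, and chance flags about 1 in 20 groups. MN 5 was also the highest library for 6 of the 9 GTPases tested, and its part in the MN means was examined only by leaving it out.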

How the results depend on the processing

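Of 2367 recomputed member values over 13 comparisons, 3 passed an adjusted p of 0.05 and 144 changed sign, none of them called. The 3 were all found with library weights (limma), which gave a count of 1 member passing in OVA against saline, 1 in OS against ON and 1 in OS against CT, in place of 0. The cause was not tested. With a pseudocount of 0.1, no filter, only the libraries compared, a single mean per treatment, rescaling, voom on recovered reads, without the pancreas-rich libraries, and leaving out each library in turn, the count was 0 in each comparison run. The largest shift of the median of all genes by rescaling was -8.09e-05 on the log2 scale (MN against CT), so rescaling could hardly change a count. With the replicate block the count was also 0 in all 13 comparisons. In the check of those numbers, libraries with the same number in different codes had a median correlation of -0.0437. It was 0.0056 for libraries with other numbers. The check does not tell what a number marks. The median of the 9 genes in MM against MN was -0.07, and 0.01 without the pancreas-rich libraries. Depth limits Gbp6, with 17 to 57 reads per library, and does not limit the other 9 genes to that degree.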
